A study of Mus musculus with 5 samples.

Results

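Among neutrophils of mice bearing AT3-gcsf tumours, 690 cells carried transcripts of both Apoe and Siglecf, out of 8811 hashtag-assigned cells that passed the same filters and 10828 called cell barcodes in that library. Apoe encodes a lipid carrier of lipoproteins that many macrophages secrete, and its gene lies in a cluster with the apolipoprotein genes Apoc1, Apoc4 and Apoc2. Siglecf encodes an inhibitory receptor for sialic acid, known from eosinophils and alveolar macrophages and also described on some neutrophils of tumours and inflamed lung. Neutrophils fill their granules with proteins such as Camp, Ltf and Ngp early in development, in the bone marrow, and lose those transcripts as they mature.

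Cells were chosen by measured transcripts. A cell needed at least 200 detected genes, under 10% mitochondrial unique molecular identifiers (UMIs, counted molecules), at least 2% of UMIs from S100a8 and S100a9, at least 1 UMI each of Apoe and Siglecf, under 0.4% of UMIs from the stefins Stfa1, Stfa2 and Stfa3, and 1 hashtag with at least 80% and at least 20 of its tag counts. Of the 10828 barcodes, 10808 met the gene minimum, 10776 the mitochondrial maximum and 10648 the S100a minimum. Both transcripts were present in 889 of these, 795 were under the stefin maximum, and 690 had a dominant hashtag. They were set against the 5088 cells of the library with neither transcript, which passed the same filters and are called neither cells here. The remaining cells held Apoe only (2271) or Siglecf only (762).

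The mice were wild type C57BL/6J females in 3 conditions: naive, bearing AT3 tumours (AT3 is a mouse mammary carcinoma line), or bearing AT3-gcsf tumours, whose name points to the growth factor G-CSF but whose construction the labels do not describe. Cells sorted as neutrophils, out of bone marrow, peripheral blood and lung, were stained with hashtag antibodies, pooled at about 8000 cells per tagged sample and 24000 per lane, and run on 10x Chromium version 3 chemistry. Each condition was 1 library in 1 lane, so condition and lane cannot be told apart, no test was possible, and all intervals are 95%, exact, and cover counting error only. The number of mice is not stated in the labels, and no label ties a hashtag to a tissue, so the 3 tags of a lane are named populations and not replicates.

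The AT3-gcsf, AT3 and naive libraries held 99703525, 54424062 and 32089597 UMIs, with a median of 7816.5, 4846.5 and 2821.5 per barcode. A dominant tag was found for 94.1%, 97.4% and 95.7% of their barcodes. Libraries shared 20 to 44 barcodes by sequence, and 3 double-positive AT3-gcsf barcodes also occurred in the AT3 library.

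The 3 hashtags of the AT3-gcsf lane are shown because every comparison between populations rests on them. Each is 15 bases long.
MHTO3: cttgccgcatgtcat
MHTO4: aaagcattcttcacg
MHTO5: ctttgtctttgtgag

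The 250 bases before the start sites of Apoe, Siglecf and Apoc2 are shown because the first pair defines the cells and Apoc2 is a neighbour of Apoe with higher levels in them. They are on the strand of the gene, from RefSeq on GRCm38.p6: Apoe at chr7:19699189-19699438 (minus strand), Siglecf at chr7:43351091-43351340 (plus strand) and Apoc2 at chr7:19677942-19678191 (minus strand). Apoe had 3 start sites in that table, and the one at the annotated gene start is shown. Capitals mark matches to any of 4 motifs, searched on both strands.
Apoe: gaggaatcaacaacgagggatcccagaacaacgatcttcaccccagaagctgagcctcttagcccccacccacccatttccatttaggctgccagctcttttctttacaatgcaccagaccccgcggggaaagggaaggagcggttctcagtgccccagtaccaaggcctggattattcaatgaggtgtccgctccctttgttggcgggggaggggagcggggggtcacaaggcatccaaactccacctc
Siglecf: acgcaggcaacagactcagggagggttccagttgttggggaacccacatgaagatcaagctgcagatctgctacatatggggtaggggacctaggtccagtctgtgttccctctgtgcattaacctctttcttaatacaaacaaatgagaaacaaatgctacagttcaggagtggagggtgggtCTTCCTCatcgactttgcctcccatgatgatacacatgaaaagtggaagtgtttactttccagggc
Apoc2: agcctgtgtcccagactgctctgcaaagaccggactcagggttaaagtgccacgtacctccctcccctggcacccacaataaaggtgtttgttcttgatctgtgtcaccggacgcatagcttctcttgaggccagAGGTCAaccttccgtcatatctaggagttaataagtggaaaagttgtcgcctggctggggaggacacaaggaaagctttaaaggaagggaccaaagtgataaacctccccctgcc

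The motifs were TATAAA (bound by TBP), AGGTCA (a nuclear receptor half-site), GAGGAAG (a PU.1 core) and TTGCGCAA (a C/EBP palindrome). None of these occurred in the Apoe window. The Siglecf window held the PU.1 core on its minus strand, which 10.6% of 32817 promoter windows of that length hold. The Apoc2 window held AGGTCA on its plus strand, as did 14.0% of windows. TATAAA was in 12.4% and TTGCGCAA in 0.164% of all windows, and in none of these 3. A match is a description of letters and not a binding site.

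Most of the cells came from 1 tag. MHTO4 held 447 of them, 14.97% (13.7 to 16.3%) of its 2986 cells, against 110 of 2577 in MHTO3 (4.27%, 3.52 to 5.12%) and 133 of 3248 in MHTO5 (4.09%, 3.44 to 4.83%). Neither cells made up 40.6% of MHTO4 but 66.1% of MHTO3 and 66.9% of MHTO5. The same rule found 137 of 7198 cells in AT3 and 27 of 6907 in naive, where cells were sequenced less deeply.

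Detection depends on depth, and double-positive cells had fewer UMIs than neither cells, with a median of 5394.5 against 8128.5. Within tags the medians were 4905 against 6765.5 in MHTO3, 4989 against 9845 in MHTO4 and 7423 against 8539 in MHTO5. The rule nevertheless needs a UMI of each gene, which favours deep cells, so the shares were also taken after thinning every cell to 2000 UMIs. Both transcripts were then present in 2.82% (2.49 to 3.20%) of 8673 AT3-gcsf cells, with 138 shallower cells left out. The share was 6.22% in MHTO4, 1.27% in MHTO3 and 0.963% in MHTO5. It was 0.778% (0.585 to 1.01%) in AT3, with 259 cells left out, and 0.161% (0.0738 to 0.306%) in naive, with 1329 left out. At this depth every AT3-gcsf tag had a higher share than every naive tag, while the MHTO5 share of 0.963% lay below the 1.06% of MHTO8 in AT3. The intervals of AT3-gcsf MHTO5 (0.655 to 1.36%) and naive MHTO3 (0.124 to 0.731%) overlapped. At 4000 UMIs the order did not hold. Naive MHTO3 was then at 2.25% (4 of 178 cells), above AT3-gcsf MHTO3 (1.95%) and MHTO5 (2.02%).

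Siglecf was more frequent in cells that had Apoe. At 2000 UMIs Siglecf was present in 13.2% (11.7 to 14.8%) of AT3-gcsf cells with Apoe and in 5.17% (4.65 to 5.72%) of those without. The pair of shares was 17.2% and 8.87% in MHTO4, 8.08% and 4.60% in MHTO3, and 7.58% and 3.13% in MHTO5. In AT3 it was 7.94% and 4.52%, with the order turned in MHTO10 (5.19% and 6.31%), and in naive it was 2.195% and 2.17%. All 3 AT3-gcsf tags thus had the same order at 2000 UMIs, with intervals that did not overlap within any of them. In MHTO3 they were barely apart (5.593 to 11.2% and 3.75 to 5.579%). At 4000 UMIs the MHTO3 intervals overlapped (7.28 to 13.4% and 5.76 to 8.27%). AT3 MHTO10 was then at 8.57% and 5.19%. Naive was at 7.09% (3.29 to 13.0%) and 1.85% (1.26 to 2.61%), with the order turned in naive MHTO4 (0% and 0.703%). The pattern was thus not particular to AT3-gcsf at that depth.

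**Figure D1:**
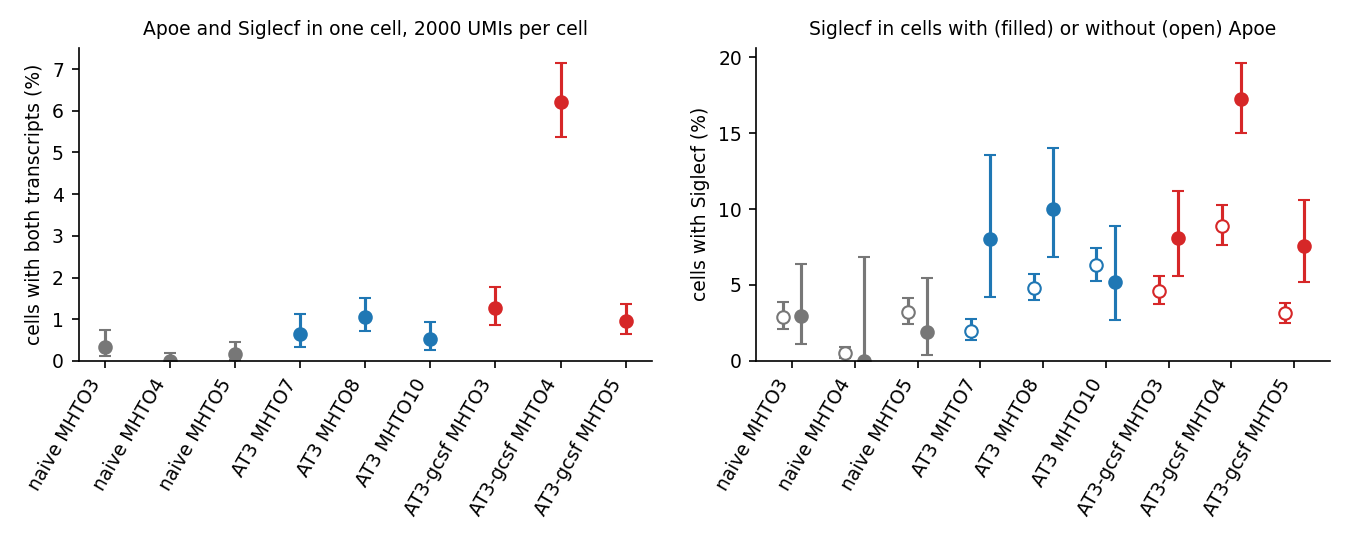
Left, percentage of cells with at least 1 UMI of both Apoe and Siglecf after thinning each cell to 2000 UMIs, by library and hashtag. Right, percentage of cells with Siglecf among cells with Apoe (filled) and without Apoe (open) at that depth. Points are shares and bars are 95% Clopper-Pearson intervals; MHTO4 of AT3-gcsf stands highest on both sides, at 6.22% on the left and 17.2% and 8.87% on the right.

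In AT3-gcsf 656 cells had at least 0.5% of UMIs from Camp, Ltf and Ngp, which marks less mature neutrophils. Apoe was present in 11.3% of them, Siglecf in 7.77% and both in 1.37%, at a median of 18352 UMIs. All tagged cells had Apoe in 33.6%, Siglecf in 16.5% and both in 7.83% at a median of 7294. The shares of the whole library were thus higher at lower depth. The part of free RNA in either set of shares was not tested.

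Most cells met the rule by few molecules. Apoe had a median of 4 UMIs per double-positive cell (mean 6.77, highest 63), with exactly 1 in 166 cells and at least 10 in 165. Siglecf had a median of 1 and a highest of 6, with exactly 1 in 487 cells and at least 2 in 203. In 125 cells (18.1%) both genes were at exactly 1 UMI, and 162 cells had at least 2 of each. Just inside the stefin maximum, at 0.3 to 0.4% of UMIs, lay 17 of the cells, and 18 cells with both transcripts lay just outside it, at 0.4 to 0.5%.

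Cells with no dominant tag are left out by the rule, and they were more frequent among cells with both transcripts. Of 786 such cells 96 (12.2%) had mixed tags, as a droplet with cells of different tags would give, against 3.12% of neither cells. The share was 1.0% against 0.197% at 2500 to 5000 UMIs, 16.4% against 1.74% at 7500 to 12000, and 49.2% (65 of 132) against 8.61% at 12000 UMIs and over. Tags cannot show doublets of 1 tag. Scrublet, a doublet caller, marked 10 of the 690 cells (1.45%) and 1.06% of neither cells, and it marked 46.3% of the cells with mixed tags. Below 12000 UMIs the double-positive share of tagged cells was 8.77%. Of 3981 genes compared there, 78 were at least 2-fold higher in double-positive cells and 24 lower, against 157 and 30 of 3889 at all depths.

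**Figure D2:**
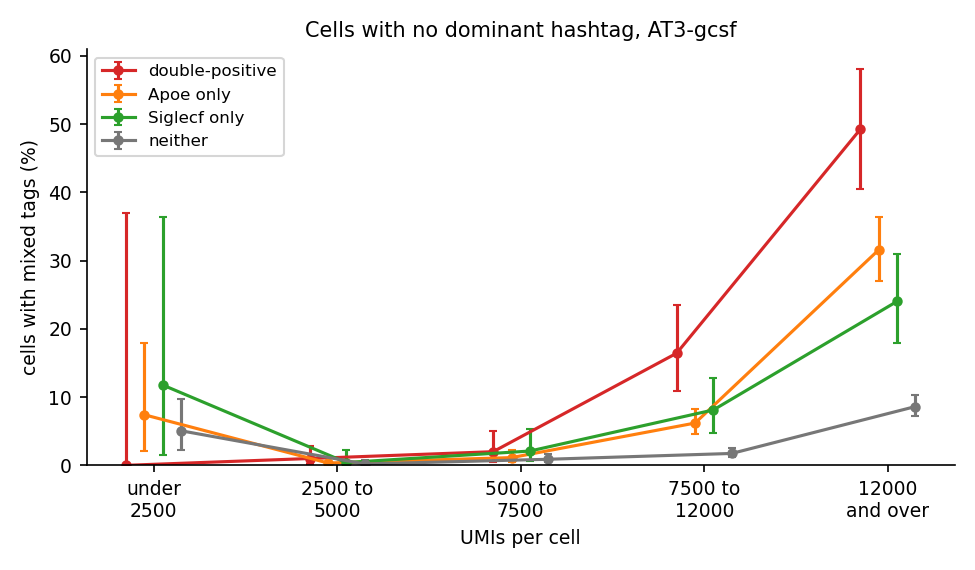
Percentage of AT3-gcsf cells whose hashtag counts had no dominant tag, by UMIs per cell, for cells with both transcripts, either alone or neither. Bars are 95% Clopper-Pearson intervals; from 7500 UMIs upwards the cells with both transcripts stand above the other classes, reaching 49.2% at 12000 UMIs and over.

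S100a8 and S100a9 were used by the rule, so the neutrophil label was read from the other 8 markers of its list. All 8 were present in double-positive cells, at a summed 21750 CPM (counts of the gene per 1e+06 UMIs summed over the cells) against 26219 in neither cells. Most members were lower. Ly6g was at 403 against 758 CPM, and was found in 28.1% against 48.9% of cells at 2000 UMIs. Mmp8, Mmp9, Retnlg, G0s2 and Il1b were lower too, by smaller ratios. Only Csf3r (1160 against 688 CPM) and Cxcr2 (728 against 544 CPM) were higher. When neither cells were weighted to the same mix of tag and depth, G0s2 and Il1b were higher as well. The S100a8 and S100a9 share was lower in double-positive cells, a median of 19.1% of UMIs against 27.4% at 2000 UMIs per cell, and more genes were detected at that depth, a median of 797 against 652. Of 9 eosinophil markers 8 were at 0, among them Prg2, Epx and Ear1, the granule proteins that define eosinophils. The list had 10 UMIs in all, from Ccr3, which is 2.12 CPM (1.02 to 3.90), and 0.937 CPM in neither cells.

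The alveolar macrophage list gave 65 UMIs (13.8 CPM, 10.6 to 17.6) against 9.29 CPM in neither cells, with 3 of 11 markers at 0, including Marco. The other macrophage and monocyte list summed to 264 CPM against 332 CPM, with C1qc and Fn1 at 0. Its members did not move together. Less the median log2 ratio of all compared genes, Csf1r was at 0.61, Adgre1 at 0.32 and Ccr2 at 0.25. With neither cells weighted to tag and depth these were 0.15, 0.42 and 0.11. Ly6c2 was at -1.53 (-0.87 weighted), and all other members lay below that median before weighting. NK cell and erythroid markers were all at 0, and mast cell, T cell, B cell and platelet lists were each under 1 CPM. Epithelial markers summed to 27.3 CPM against 28.0 CPM, in 16.2% and 20.2% of cells. Early neutrophil precursor markers summed to 558 CPM against 112 CPM, but 89.2% of those UMIs came from 1 MHTO4 cell of 58475 UMIs. That cell alone held over 50% of the UMIs of Prtn3, Elane, Mpo, Ctsg and Ms4a3. The double-positive sums of these 5 genes thus rest mostly on that cell. Prtn3 was also higher in the tags without that cell, at 48.2 against 28.5 CPM in MHTO3 and 45.1 against 19.7 CPM in MHTO5. After thinning, 10.3% of double-positive and 5.23% of neither cells had a Prtn3 UMI.

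**Figure D3:**
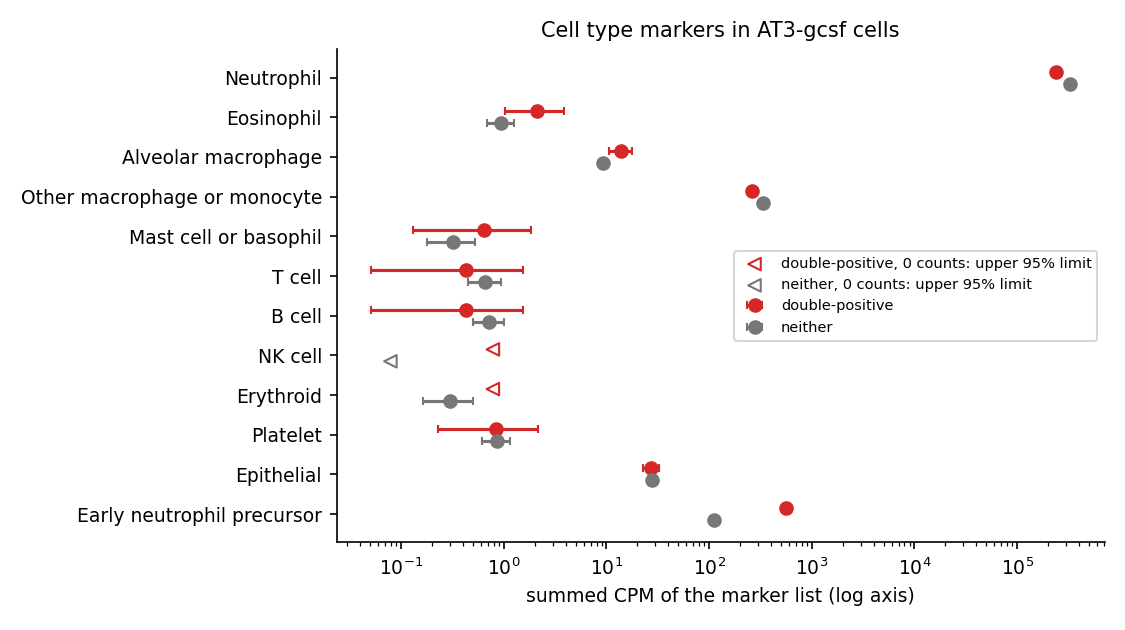
Summed CPM of each cell type marker list in the 690 double-positive cells and the 5088 neither cells of AT3-gcsf, on a log axis, with 95% Poisson intervals; open triangles give the upper limit where no UMI was counted. The neutrophil list includes S100a8 and S100a9, on which the cells were chosen, and the early precursor list (558 CPM against 112 CPM) is carried by 1 cell.

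Counts were summed over the double-positive and the neither cells, and a gene was compared where its higher sum reached 20 CPM. Log2 ratios were taken after adding 5 CPM to both sums, which understates the ratios of low genes, and a ratio of 1 in size (2-fold) was called. Of 3889 genes compared, 157 (4.04%) were at least 2-fold higher in double-positive cells and 30 (0.771%) lower. The rule chose these cells by their transcripts, so these counts describe the cells and test nothing. The median of all compared genes was 0.39, and 84.9% lay above 0. With TMM scaling, which matches the bulk of the genes in place of the totals, that median moved by -0.57 and the split turned to 19 higher and 148 lower. Against the median of all genes the split was alike, with 31 genes at least 2-fold above it and 72 below by totals, and 33 and 75 by TMM.

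Double-positive cells also differed from neither cells in tag and depth. When neither cells were weighted to the same mix of tag and depth, 15 genes (0.386%) remained at least 2-fold higher, including Apoe and Siglecf, and 8 (0.206%) lower. All 155 called higher genes other than Apoe and Siglecf were above 0 in that comparison, where 82.6% of all compared genes were, and all 30 lower genes below 0, with the median of all compared genes at 0.17. Weighted ratios are given as such below. Within tags, 145 of the 155 were above 0 in all 3 (63.3% of all compared genes were), and 30 of 30 below 0 in all 3 (7.41%). Called genes were most numerous in MHTO4, with 469 genes (11.5%) higher and 58 (1.42%) lower, against 103 (2.73%) and 49 (1.3%) in MHTO3 and 20 (0.585%) and 4 (0.117%) in MHTO5.

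Neighbours of Apoe on chromosome 7 had higher levels in these cells. Apoc2, on GRCm38 at chr7:19671579-19677941, encodes the cofactor that activates lipoprotein lipase. It stood at 270 CPM (255 to 285) against 89.4 CPM (86.7 to 92.2) in neither cells, a log2 ratio of 1.54 pooled and 1.40 weighted. By tag it was 208 CPM against 67.6 in MHTO3, 319 against 128 in MHTO4 and 190 against 78.6 in MHTO5, so the ratio held in each. It was 88.9 CPM in cells with Siglecf only, as in neither cells, and 243 CPM in cells with Apoe only. Among double-positive cells it was 122 CPM where Apoe had 1 UMI, 294 CPM at 2 to 9 UMIs and 374 CPM at 10 or more, and 243 CPM where Siglecf had 1 UMI and 339 CPM at 2 or more. After thinning, 39.5% of double-positive and 12.4% of neither cells had an Apoc2 UMI.

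Apoc1, at chr7:19689481-19692660, encodes another small apolipoprotein of the same particles. It stood at 22.7 CPM (18.6 to 27.4, 107 UMIs in 57 cells) against 1.94 CPM (1.56 to 2.38), a log2 ratio of 1.996 pooled and 1.79 weighted. It was 11.3 CPM with Apoe only and 3.05 CPM with Siglecf only. Among double-positive cells it was 20.2 CPM (12.9 to 30.1) at 1 Apoe UMI, 13.8 CPM (9.47 to 19.3) at 2 to 9 and 44.2 CPM (32.8 to 58.3) at 10 or more, so it was highest in the last and not ordered below it. By tag it was 13.3, 30.0 and 10.9 CPM in MHTO3, MHTO4 and MHTO5, against 1.44, 3.27 and 1.41 CPM in neither cells. Apoc4, which lies between Apoc1 and Apoc2, had 0 UMIs in double-positive cells. Mixed tags were found in 12.2% of cells with both transcripts and 7.46% of those with Apoe only, and the part of unseen doublets in these ratios was not tested.

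Other genes of lipid handling were also higher. Of 21 genes on a lipid transport and storage list, 12 were compared, 6 were at least 2-fold higher (4.04% of all compared genes were) and none lower, with a median log2 ratio of 0.81 against 0.39 over all compared genes (0.30 against 0.17 weighted). Besides both apolipoproteins these were Acot1, an acyl-CoA thioesterase, Abca1 and Abcg1, which export cholesterol, and Acsl1, which activates fatty acids. Acot1 stood at 63.6 CPM against 13.0 CPM pooled (log2 1.93, 0.69 weighted), and was 92.6 CPM in MHTO4 but 16.6 and 21.8 CPM in MHTO3 and MHTO5. Abca1 was 49.4 CPM against 19.4 CPM (log2 1.16, 0.57 weighted) and Abcg1 43.9 against 18.3 CPM (log2 1.07, 0.58 weighted). Acsl1 was 53.8 CPM against 23.5 CPM (log2 1.04, 0.24 weighted). Plin2, a coat protein of lipid droplets, was at 537 against 358 CPM (log2 0.58, 0.27 weighted), and Fabp5, a fatty acid carrier, at 338 against 355 CPM. Only Apoc1 and Apoc2 of the list reached 2-fold against weighted neither cells (0.386% of all compared genes did).

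Cyp4f16, a cytochrome P450 of the family that oxidises fatty acids and eicosanoids, was the only named gene at least 2-fold higher under all 22 alternative settings. It stood at 46.9 CPM (40.9 to 53.5) against 6.73 CPM (6.01 to 7.51), log2 2.14 pooled and 1.12 weighted. By tag it was 31.6, 61.1 and 22.6 CPM in MHTO3, MHTO4 and MHTO5 against 6.81, 8.52 and 5.54 CPM. Cells with Apoe only (17.0 CPM) and with Siglecf only (17.5 CPM) lay between, so here the 2 transcripts marked like levels.

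Several genes of immune signalling and surface receptors were higher by pooled sums and near or under 2-fold when weighted. Scimp, a membrane adaptor, was 71.4 CPM against 13.2 CPM (log2 2.07, 0.999 weighted), with 89.7 CPM in MHTO3, 88.0 in MHTO4 and 26.4 in MHTO5. Rgs10, a regulator of G protein signalling, was 29.3 CPM against 5.32 CPM (1.73, 0.94 weighted). Clec4a3, a C-type lectin receptor, was 99.4 CPM against 27.6 CPM (1.68, 0.95 weighted). C4b, complement component 4B, was 24.0 CPM against 4.30 CPM (1.64, 1.06 weighted). Cd101, a surface protein of mature neutrophils, was 52.2 CPM against 14.0 CPM (1.59, 0.72 weighted). It was the only called gene of 12 on a gelatinase granule and maturation list, of which 3 lay above 0, with a median of -0.26 (-0.16 weighted). Scimp, Rgs10, Clec4a3, C4b and Cd101 each lay between the 2 classes in cells with only Apoe or only Siglecf.

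Gpc3, a glypican, was 32.9 CPM against 6.24 CPM (log2 1.75, 0.68 weighted) and Nop10, a small nucleolar protein, 58.7 CPM against 16.2 CPM (1.59, 0.94 weighted). Hspe1, a mitochondrial chaperone, was 28.8 CPM against 5.67 CPM (1.67, 1.14 weighted), with 47.1% of its UMIs in 1 cell. Prtn3 and Mpo, granule proteins of early precursors, had log2 ratios of 2.15 and 1.74 (2.10 and 1.94 weighted), and 80.2% and 98.8% of their UMIs lay in 1 cell. Leaving out all cells with at least 10 UMIs summed over Elane, Mpo, Prtn3 and Ctsg took away that cell and also 2 neither cells. The log2 ratios were then 0.89 and 0.03, which do not show the removal of that cell alone.

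Mif and Pkib were given with the rule. Pkib, an inhibitor of protein kinase A, stood at 87.1 CPM against 25.4 CPM (log2 1.60, 0.69 weighted). It was 117 CPM in MHTO4, 47.4 in MHTO5 and 31.6 in MHTO3, where neither cells had 26.03 CPM. Mif, a cytokine, stood at 258 CPM against 96.7 CPM (log2 1.37), and the log2 ratio was 0.26 when neither cells were weighted to tag and depth. It was 163 CPM with Siglecf only and 162 CPM with Apoe only. MHTO4 had the highest Mif at 347 CPM, with 149 in MHTO3 and 111 in MHTO5.

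**Figure D4:**
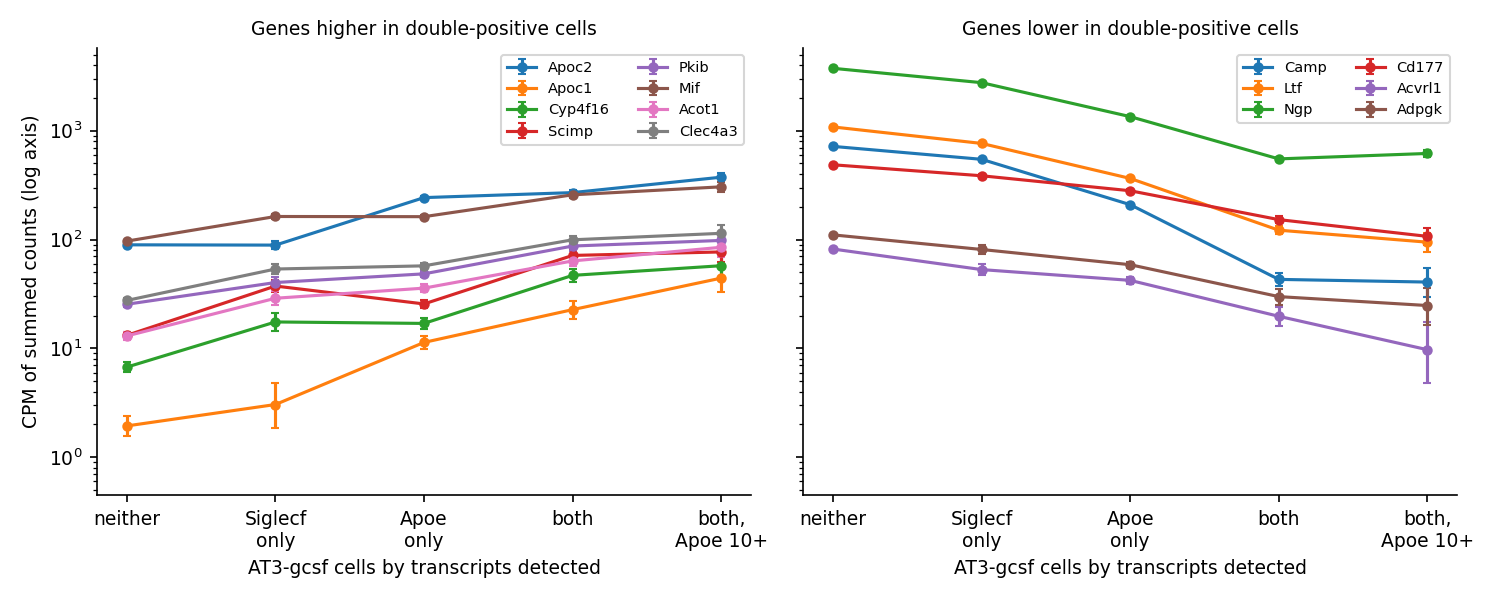
CPM on a log axis in AT3-gcsf cells with neither transcript, Siglecf only, Apoe only, both, and both with at least 10 Apoe UMIs, with 95% Poisson intervals. Left, genes higher in double-positive cells: Apoc2 and Apoc1 stay low in Siglecf-only cells (88.9 and 3.05 CPM) and are high in Apoe-only cells, while Cyp4f16 is alike in both. Right, genes lower in double-positive cells, with Camp at 718 CPM in neither cells and 43.0 CPM in double-positive cells.

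Transcripts of secondary granule proteins were lower in double-positive cells. Of 13 genes on that list 12 were compared, 7 were at least 2-fold lower (0.771% of all compared genes were) and none higher, with a median log2 ratio of -1.16 (-0.73 weighted) against 0.39 (0.17 weighted) over all compared genes. Camp, the precursor of the antimicrobial peptide CRAMP, was 43.0 CPM (37.3 to 49.4) against 718 CPM (710 to 725), log2 -3.91 pooled and -3.23 weighted. Ltf, lactoferrin, was 122 CPM against 1083 CPM (log2 -3.10, -2.37 weighted), and Ngp, neutrophilic granule protein, 551 CPM against 3744 CPM (-2.75, -2.0004 weighted). By tag Camp was 8.31, 27.9 and 92.6 CPM in MHTO3, MHTO4 and MHTO5 against 596, 1612 and 224 CPM, so the gap was narrowest in MHTO5. Among cells under 12000 UMIs the log2 ratios of Camp, Ltf and Ngp were -0.70, -1.31 and -1.82.

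Cd177, a surface glycoprotein of neutrophils, was 152 CPM against 486 CPM (log2 -1.64, -0.999 weighted). Chil3, a secreted chitinase-like protein, was 134 CPM against 404 CPM (-1.56, -0.86 weighted). Serpinb1a, an inhibitor of neutrophil proteases, was 31.4 CPM against 123 CPM (-1.82, -1.25 weighted) and Anxa3, an annexin, 29.3 CPM against 95.3 CPM (-1.55, -1.01 weighted). Acvrl1, a receptor of the TGF-beta family, was 19.7 CPM against 81.8 CPM (-1.81, -1.13 weighted), and Adpgk, an ADP-dependent glucokinase, 29.9 CPM against 110 CPM (log2 -1.72, -1.24 weighted). Fdps, an enzyme of the mevalonate pathway, was 12.9 CPM against 51.1 CPM (-1.64, -1.16 weighted).

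The share of cells with few granule transcripts also differed between the classes. Cells with under 0.05% of UMIs from Camp, Ltf and Ngp, called granule-poor here, made up 92.0% of double-positive and 69.5% of neither cells. By tag the shares were 91.8% against 74.0% in MHTO3, 94.0% against 57.1% in MHTO4 and 85.7% against 72.9% in MHTO5. Among granule-poor cells with neither cells weighted to tag and depth, no gene was 2-fold lower. Camp, Ltf and Ngp set that class, so their ratios within it are not informative. Only 5 genes were 2-fold higher there: Apoe, Siglecf, Apoc1 (log2 1.74), Apoc2 (1.60) and Cyp4f16 (1.07). Apoc2 was 282 CPM against 89.9 CPM in that comparison, Apoc1 23.9 CPM against 3.61 CPM and Cyp4f16 51.9 CPM against 22.1 CPM.

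**Figure D5:**
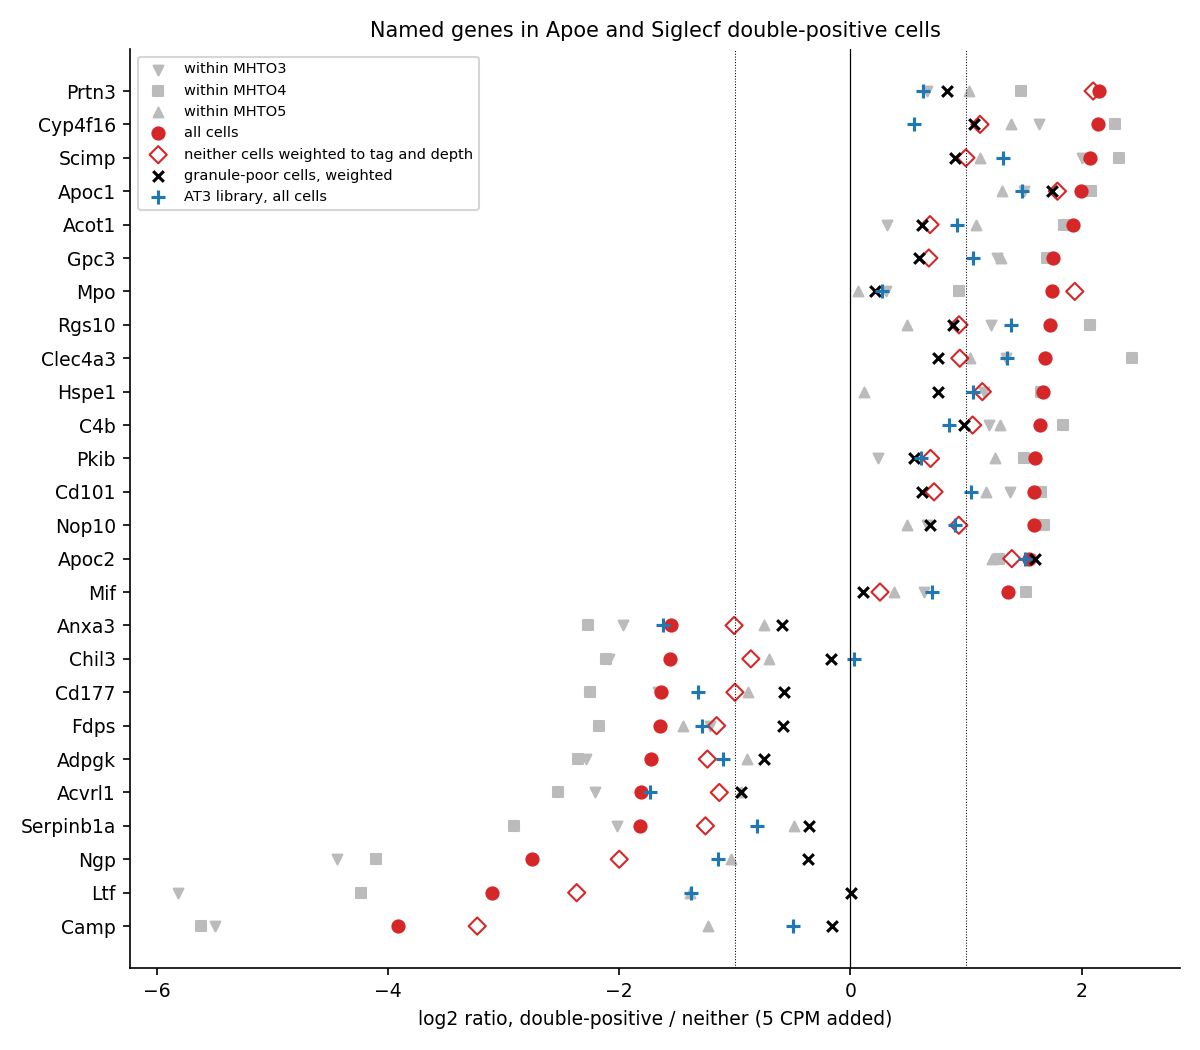
Log2 ratios of the named genes, double-positive over neither cells with 5 CPM added: pooled (red points), weighted to tag and depth (open diamonds), within each tag (grey), in granule-poor cells with weights (crosses) and in the AT3 library (plus signs). Dotted lines mark 2-fold. Apoc1, Apoc2 and Cyp4f16 have crosses above 2-fold. The crosses of Camp, Ltf and Ngp are near 0 by the choice of granule-poor cells.

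The other lists are set beside all compared genes, of which 84.9% lay above 0 and 4.04% were called higher, with a median of 0.39 pooled and 0.17 weighted. The 16 genes compared from a list reported in Siglecf-high tumour neutrophils had a median of 0.42 (0.22 weighted). On that list Csf1, a macrophage growth factor, was 48.5 CPM against 24.3 CPM (log2 0.87, 0.55 weighted), and Lgals3, galectin-3, 525 CPM against 812 CPM (log2 -0.62, -0.38 weighted). Respiratory chain genes had a median of 0.58 (0.28 weighted), with 19 of 19 above 0 and 1 called, the ATP synthase subunit Atp5g1 (53.6 against 20.5 CPM, log2 1.20, 0.84 weighted). Unfolded protein and endoplasmic reticulum genes had a median of 0.53 (0.38 weighted), with 13 of 13 above 0 and none called.

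Glycolysis and hypoxia genes had a median of 0.05 (-0.02 weighted), with 1 of 19 called higher, Bnip3 (129 against 61.5 CPM, log2 1.01, 0.31 weighted). Lysosome and proton pump genes had a median of 0.33 (0.15 weighted) and none of 18 was called. Among 6 compared genes of sialic acid biology, other than Siglecf itself, none was called, and the related receptors Cd33 and Siglece had log2 ratios of 0.25 and 0.22 (0.11 and 0.0013 weighted). Interferon-stimulated genes (median 0.04, 0.06 weighted, 13 genes), NF-kB feedback (0.13, 0.26 weighted, 12 genes) and chemokines and cytokines (0.20, 0.36 weighted, 13 genes) had no called member. Of the myeloid suppressor list 1 of 13 was lower, Prok2, a chemoattractant peptide (724 against 1618 CPM, log2 -1.16, -0.74 weighted).

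Double-positive cells differed between tags, and in MHTO5 mostly in genes that set its neither cells apart as well. There 183 genes were at least 2-fold above both other tags, 160 of them in neither cells too, led by the chemokine Cxcl2 at 5968 CPM against 54.8 in MHTO3 and 91.9 in MHTO4. G0s2, an inhibitor of lipolysis, was 4063 CPM against 108 and 116 CPM, and Hilpda, a lipid droplet protein, 534 CPM against 11.6 and 15.6 CPM. MHTO4 had 60 such genes, 6 of which also passed 2-fold in neither cells. Elane, Ctsg, Mpo, Ms4a3 and Prtn3, with UMIs mostly from the 1 precursor-like cell, were among these 6. No share over all genes is set beside the counts by tag. The first 7 genes of MHTO4 were each mostly from 1 cell, and the next was Acot1. MHTO3 had 10, including the interferon-stimulated Oasl2 (379 CPM against 164 and 149 CPM) and the transcription factor Klf2 (1884 against 599 and 850 CPM), and none of these reached 2-fold in neither cells, although Klf2 (1354 against 474 and 739 CPM) and Oasl2 (226 against 96.3 and 127 CPM) were highest in MHTO3 there too.

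In AT3 the same rule chose the cells by the same 2 transcripts, so its ratios describe cells chosen alike and test nothing. There 130 of 3760 genes (3.46%) were at least 2-fold higher in the 137 double-positive cells than in the 5557 neither cells. Another 38 (1.01%) were lower. Of the genes called higher in AT3-gcsf, 101 were compared in AT3, and all 101 had a ratio above 0, where 78.4% of all compared genes did, and 27 reached 2-fold. Of 26 called lower, 25 were below 0 and 17 reached 2-fold. The medians were 0.78 for the higher and -1.13 for the lower genes, against 0.30 for all genes, and 0.58, -0.61 and 0.20 when weighted. The exception among the lower genes was Chil3, at 783 against 767 CPM.

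Apoc2 was 129 CPM (106 to 156) against 42.0 CPM in AT3 (log2 1.52, 1.62 weighted) and Apoc1 12.2 CPM against 1.14 CPM (1.49, 10 UMIs). Cyp4f16 was 6.10 CPM against 2.56 CPM, from 5 UMIs. In naive, Apoc2 was 47.3 CPM (15.4 to 110, 5 UMIs) against 15.1 CPM, and Apoc1 had no UMI in 27 cells. Camp was 4315 CPM against 6079 CPM in AT3 (log2 -0.49), and its direction turned when weighted (0.22). Within tags its ratio was -0.01 in MHTO7, -0.58 in MHTO8 and -2.87 in MHTO10.

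Levels of the acute-phase gene Saa3 differed more between libraries than between classes. Saa3 was 5919 CPM in double-positive and 3489 CPM in neither cells of AT3-gcsf, 152 and 57.5 CPM in AT3, and had no UMI in the naive double-positive cells. In each AT3-gcsf tag double-positive cells were the higher class, at 6780 against 3775 CPM in MHTO3, 5609 against 1365 in MHTO4 and 6199 against 4661 in MHTO5.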

How the data were processed

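Raw UMI counts for each gene in each called barcode were deposited; the submitters' processing notes name bcl2fastq 2.20.0.422, Cell Ranger 4.0.0 and mm10. The hashtag files held deposited raw counts per tag and barcode; the program that made them was not given in the sources used here. The naive and AT3 hashtag files were joined to the library whose barcodes they labelled (over 95% dominant tags against at most 0.672% for the other file). Of 32285 genes, 32158 matched GENCODE vM21, which gave positions on GRCm38. Counts were summed per class with python 3.11.15 and scipy 1.17.1, scaled to CPM, and compared at 20 CPM with 5 CPM added; weights matched neither cells to tag and depth (effective number 1341). Doublets were left in unless tags were mixed; Scrublet in scanpy 1.11.5 (expected rate 8%) and TMM in edgeR 4.0.16 served as alternatives, and the ratio calculation was tested on simulated data. No p-value was computed, since each condition was 1 library. Named genes were the 15 highest and 10 lowest called ratios with the same direction in each tag and at least 1.5-fold when weighted, Mif, Pkib, and the extremes of each of 22 gene lists; other genes named were chosen after their values were seen. The cells, lists and rules were chosen with earlier results of these data known. The granule-poor, depth and precursor-cell settings were added after seeing the data. CPM intervals are Poisson and shares Clopper-Pearson, both for counting error only.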

Additional observations from a re-analysis of the deposited data

Results flagged for a closer look

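Cells with both transcripts were also found among cells that the S100a minimum leaves out. Of 126 tagged AT3-gcsf cells under 2% of S100a8 and S100a9 UMIs, 15 had both Apoe and Siglecf (11.9%, 6.82 to 18.9%) at a median of 3754.5 UMIs. By the same measure the share was 4.17% of 192 cells in AT3 and 1.31% of 381 in naive. These cells enter no comparison above, and the level is given because it stands above that of the naive library. The difference was not tested.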

How the results depend on the processing

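No paired analysis was possible because each condition has 1 library and the labels give no replicate numbers. Each named gene was recomputed under 22 alternatives; of 36 named genes called in the main comparison, 33 kept their direction in all and 1, Cyp4f16, stayed at least 2-fold in all. The counts of genes moved more. Against 157 higher and 30 lower, weighting neither cells to tag and depth gave 15 and 8, TMM 19 and 148, granule-poor cells 62 and 10, and granule-poor weighted cells 5 and 0. Asking for 2 UMIs of each gene gave 162 cells, 1.84% of tagged cells, 422 higher and 66 lower. Leaving out MHTO4 gave 4.17% of cells, 19 higher and 11 lower, leaving out MHTO5 10.0%, 276 and 46, and leaving out MHTO3 9.30%. An S100a minimum of 10% gave 6.83% and 63 higher, and cells under 12000 UMIs 8.77% and 78 higher. Adding 1 CPM gave 264 higher, adding 20 CPM 36 higher, a minimum of 100 CPM 35 and 16, the mean of the ratios within tags 48 higher, and totals without the 20 most abundant genes 62 lower. The share with both transcripts was 1.21% at 1000 UMIs per cell, 4.38% at 4000 and 7.83% without thinning. Among the 36 called genes, ratios that changed sign were those of Prtn3 (-0.33) and Mpo (-1.83) with 2 UMIs of each gene, which leaves out the precursor-like cell, and of Ltf among granule-poor cells (0.12, and 0.0076 weighted). The cause of the other shifts was not tested. With 1 library per condition, depth limits only the counting error, which is wide for genes of few UMIs and for the 27 naive cells.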
